A study of Bos taurus with 12 samples.

Results

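Lymphatic vessels drain fluid, protein and leukocytes from the mammary gland (MG), and 6 genes that mark or guide their endothelium were followed through 6 days of feed restriction: PROX1, LYVE1, CCL21, FLT4, PDPN and VEGFC. They were taken as named lymphatic genes, and their probes were those whose RefSeq transcript carries the symbol in the reference gene table. Of the 6 genes, 5 had at least 1 probe, and the 9 probes are among 43653 on the array (12787 named genes). FLT4 had no mapped probe and was not measured here. Only probes that the scanner software called well above background on all arrays of CONT, of REST or of both were tested. By that criterion 4 of the 9 probes were, 1 each for PROX1, LYVE1, CCL21 and VEGFC, of 19406 tested probes (7932 genes) in all, and PDPN was described without a test.

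The samples were MG biopsies of multiparous midlactation Holstein cows, 6 in the CONT group and 6 in the REST group. CONT biopsies were taken on day 0, when the cows ate a lactation diet ad libitum, and REST biopsies on day 6 of restriction, when the feed covered 50% of the net energy needed for lactation. The same cows gave both biopsies, from alternate sides of the rear udder per the methods, so that period and side differ together within a cow and cannot be told apart. The labels name 6 cows, whereas the design text of the series counts 5. The methods say that 1 Holstein cow was left out because of mastitis, an inflammation of the udder, and whether it is among the 6 labelled cows, and which, is not given in the sources used here. Ages are not given in the sources used here. The labels name no altered gene and no drug for either group.

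Background on the pathway is as follows. VEGFC is the growth factor ligand that drives lymphatic sprouting through its receptor FLT4 (VEGFR-3), and PROX1 is the homeobox transcription factor that sets and keeps lymphatic endothelial identity. LYVE1 is a hyaluronan receptor on lymphatic capillaries, also carried by some tissue macrophages, and PDPN is a mucin-type membrane glycoprotein of lymphatic endothelium that fibroblasts and myoepithelium can carry too. CCL21 is the chemokine by which lymphatic endothelium draws in dendritic cells and T cells bearing the receptor CCR7.

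LYVE1 and CCL21 signals were higher in REST and those of PROX1 and VEGFC were lower, and none of these 4 genes passed at an adjusted p of 0.1 in the comparison without a block for the cow. With limma, 0 of 4 tested members were called, where 4.39% of all tested genes were. At an unadjusted p under 0.05 there were 3 of 4 (LYVE1, VEGFC and CCL21), where 16.8% of all tested genes were. CCL21 met the filter on dim probes only through REST, the group in which it was higher, so it is no support in this count, and PROX1 met it only through REST, in which it was lower. With the cow as a fixed block 1 member was called, LYVE1, against 16.2% of genes, and with the cow as a random block 3 members were, LYVE1, VEGFC and PROX1, against 18.3% of genes. Of the 4 genes 2 were higher and 2 lower, with changes from -0.56 for PROX1 to 1.16 for CCL21 on the log2 scale, and the median over all tested genes was -0.01.

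Levels are given as normalized signals, that is log2 of the processed spot intensity minus the 75th percentile of the array, so that a negative value is dimmer than that percentile. Levels of different probes cannot be set against each other. Slide 3, which held cows 5 and 6, was dim: its 75th percentile was 73.0 to 116 intensity units, against 252 to 389 on slides 1 and 2, and 41.9 to 48.0% of its probes were well above background, against 61.8 to 67.9%. Slide 1 held both arrays of cows 1 and 2, and slide 2 those of cows 3 and 4. In raw brightness, read as the log2 of that percentile, the REST array exceeded the CONT array of the same cow in 6 of 6 cows, with a mean difference of 0.29 ± 0.10 (SD, n = 6). The tissue is mixed, so fewer lymphatic cells and less RNA per cell cannot be told apart.

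**Figure D1:**
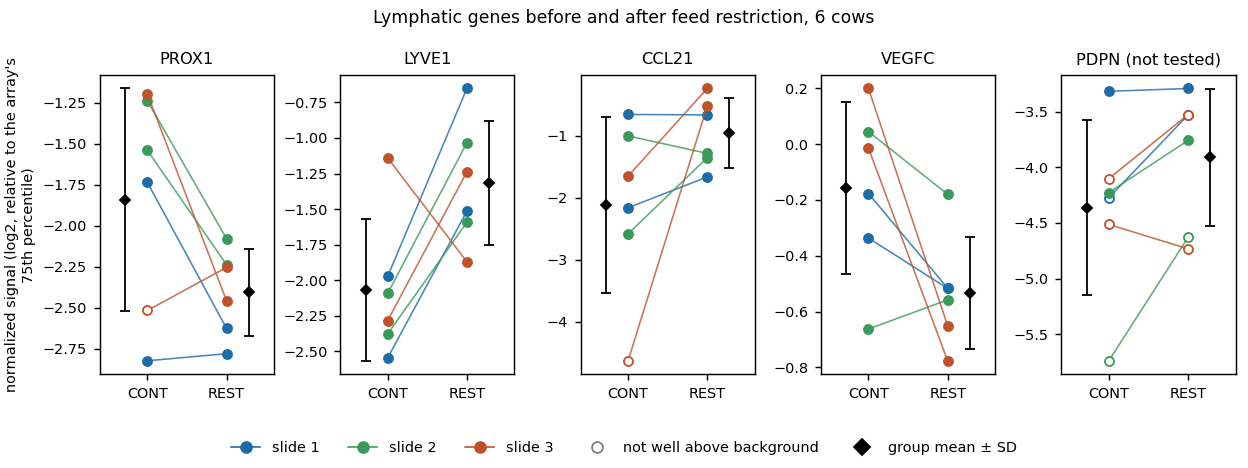
Normalized signal (log2, relative to the 75th percentile of the array; each panel has its own scale) of the probe used for each gene, CONT and REST joined within each of 6 cows, coloured by slide. Open points were not well above background, and diamonds with bars are group means ± SD (n = 6). PROX1 was lower in 4 of 6 cows, LYVE1 higher in 5, CCL21 higher in 4, VEGFC lower in 5 and PDPN higher in 5.

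PROX1 (NM_001193232) had 2 probes. On the tested probe, A_73_P249721, the CONT signals had a lowest value of -2.82, a median of -1.64 and a highest of -1.20, and the REST signals -2.78, -2.36 and -2.08. The groups overlapped, and the REST samples were the more alike, all within the lower part of the CONT range. The means were -1.84 ± 0.68 in CONT and -2.41 ± 0.27 in REST (SD, n = 6), a change of -0.56 (SE 0.26, 95% interval -1.13 to 0.0018). Cows 1, 3, 4 and 5 were lower in REST by 0.70 to 1.26 log2 units in size, and cow 2 (0.04) and cow 6 (0.26) were slightly higher. The CONT spot of cow 6 was the only spot of this probe not well above background, so the sign in cow 6 is not settled. That spot was also set to the lowest signal well above background on its array, an alternative chosen after the data were seen. Raising a CONT spot can only lower the change, so this does not settle the sign either. Cow 6 was then -0.19, the signal was lower in 5 of 6 cows and the change was -0.64. The change did not pass in limma without a block (adjusted p = 0.298) or with the cow as a fixed block (adjusted p = 0.105), and it passed with the cow as a random block (adjusted p = 0.0897). With the fixed block it also passed when cow 6 was left out, at -0.73 (adjusted p 0.0632 in limma). PROX1 is also among the genes that the study named on these samples, so its direction here is not independent evidence.

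The other PROX1 probe, A_73_P072421, was not tested, since both spots of cow 6 were not well above background. Its CONT signals ran from -2.24 through a median of -1.47 to -1.02, and its REST signals from -2.62 through -2.14 to -1.98. It was lower in REST in 6 of 6 cows, with changes of -1.02 to -0.29, where 8.48% of all probes were lower in every cow. The means were -1.60 ± 0.45 and -2.24 ± 0.27 (SD, n = 6), a change of -0.64, and the groups overlapped. In a limma fit over all 43653 probes, with no filter on dim ones, its adjusted p was 0.416 without a block, where 0.218% of probes were called, and 0.0875 with the fixed block for the cow, where 0.88% were. In that blocked fit over all probes no other member probe passed: the adjusted p was 0.225 for the tested PROX1 probe, 0.205, 0.106 and 0.149 for LYVE1 probes A_73_P041846, A_73_P392956 and A_73_P468658, 0.253 for CCL21, 0.232 and 0.655 for the VEGFC probes and 0.237 for PDPN (limma). Both PROX1 probes were lower in the same 4 cows and differed in sign in cows 2 and 6. With dim spots below the lowest signal well above background on their array raised to it, cow 6 was -0.35 on this probe and -0.19 on the tested one. That raising can only lower the change on the tested probe, and on this probe it left REST at the floor. Whether the probes share a sign in cow 6 is therefore not settled. With the normexp background correction the changes of the probes were -0.40 and -0.44.

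LYVE1 (NM_205815) had 3 probes and was the gene with the smallest adjusted p of the 4 tested. On probe A_73_P041846, well above background on all 12 arrays, CONT signals had a lowest value of -2.54, a median of -2.19 and a highest of -1.14, and REST signals -1.87, -1.38 and -0.65. The means were -2.07 ± 0.50 in CONT and -1.32 ± 0.44 in REST (SD, n = 6), a change of 0.75 (SE 0.24, 95% interval 0.23 to 1.27, both without a block), or 1.68-fold. With the cow as a fixed block the 95% interval was 0.21 to 1.29. Cows 1 to 5 were higher in REST by 0.78 to 1.32 log2 units. Cow 6 moved the other way, from -1.14 to -1.87, and held both the highest CONT and the lowest REST value, which is the whole of the overlap between the groups. In limma the adjusted p was 0.131 without a block, 0.0866 with the cow as a fixed block and 0.0363 with the cow as a random block.

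The call of LYVE1 turned on single cows. Without cow 6 the change was 1.05 and the adjusted p 0.0272 without a block and 0.0117 with the fixed block. With the fixed block, leaving out any of cows 1 to 5 ended the call, with adjusted p between 0.147 and 0.224. The change was 1.17 on slide 1, 0.92 on slide 2 and 0.16 on slide 3, where cow 5 (1.04) and cow 6 (-0.73) went opposite ways. Without slide 3 it was 1.05, with an adjusted p of 0.0968 without a block and 0.0301 with the fixed block.

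The other LYVE1 probes were dim, each well above background on 2 of 6 CONT and 4 of 6 REST arrays, and were not tested. On A_73_P392956 the CONT signals ran from -4.15 to -3.48 and the REST signals from -3.34 to -2.05. On the signals with no floor set, every REST value was above every CONT value, as for 0.396% of all probes, and the signal was higher in 6 of 6 cows, as for 4.25% of all probes. Of these 12 spots 6 were not well above background, so nothing is read from their order. On A_73_P468658 the CONT signals ran from -4.31 to -3.74 and the REST signals from -4.52 to -2.39, with cow 6 again the exception. The changes were 0.79 and 0.96. An alternative chosen after the data were seen raised spots not well above background to a floor, the lowest signal well above background on their array. Spots already above that floor were kept as they were. The changes were then 0.41 and 0.77, each higher in 4 of 6 cows. In cows 5 and 6 every spot of both probes was raised. Their changes, -0.47 and -0.30 on either probe, are thus differences between array floors and not LYVE1 signal. The groups of A_73_P392956 then overlapped, through those floors alone, so nothing is read from it. With no floor set, all 3 probes were higher in REST in cows 1 to 5. The size on the dim probes rests on the background correction: with normexp their changes were -0.12 and 0.01, against 0.37 for A_73_P041846 (adjusted p 0.397 in limma).

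**Figure D2:**
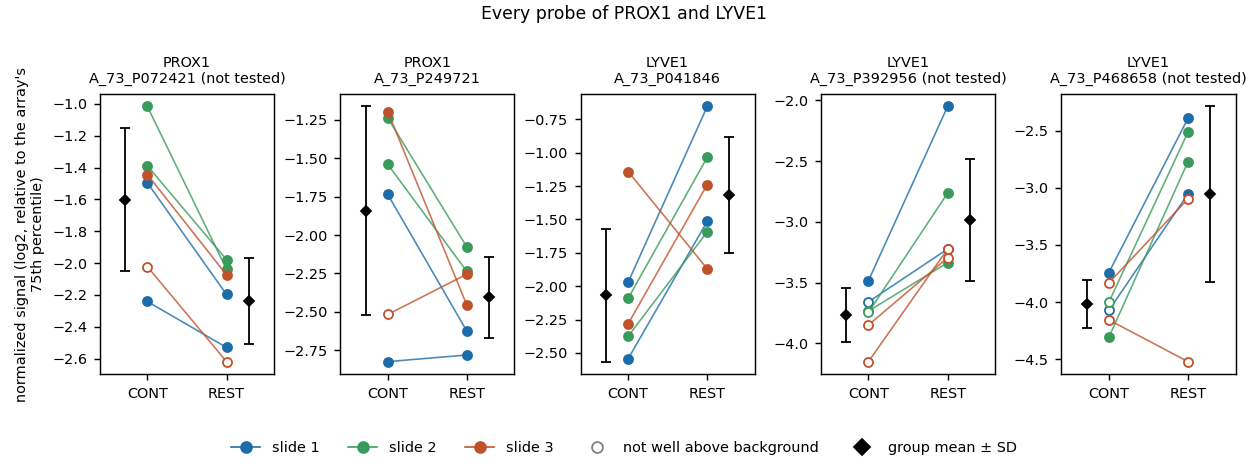
Normalized signal (log2, relative to the 75th percentile of the array; each panel has its own scale) of both PROX1 and all 3 LYVE1 probes, joined within each of 6 cows and coloured by slide; open points were not well above background and diamonds show group means ± SD (n = 6). PROX1 probe A_73_P072421 was lower in 6 of 6 cows and A_73_P249721 in 4. LYVE1 probe A_73_P392956 is the only probe shown whose groups do not overlap. Of its 12 points 6 are open, so nothing is read from their order.

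CCL21 (NM_001038076) had 1 probe, A_73_104412. CONT signals had a lowest value of -4.63, a median of -1.90 and a highest of -0.65, and REST signals -1.66, -0.97 and -0.23. The groups overlapped, and all but 1 of the spots were well above background. The means were -2.11 ± 1.43 in CONT and -0.95 ± 0.56 in REST (SD, n = 6), a change of 1.16 (SE 0.54, 95% interval 0.01 to 2.32, both without a block). With the cow as a fixed block the 95% interval was 0.04 to 2.28. In limma the adjusted p was 0.293 without a block, 0.169 with the fixed block and 0.114 with the random block. The CONT spot of cow 5 was not well above background, at 3.44 intensity units against 81.5 in REST, so its change of 4.12 has no measured lower level, and with that spot set to the lowest signal well above background on its array the change of cow 5 was 1.92.

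The other cows changed by less. CCL21 was higher in cow 1 (0.50), cow 3 (1.23) and cow 6 (1.42), and cow 2 (-0.01) and cow 4 (-0.28) were slightly lower. Without cow 5 the change was 0.57, and without slide 3 it was 0.36. With the dim spot set in that way the change over the 6 cows was 0.80. With normexp it was 0.24 (adjusted p 0.695 in limma).

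VEGFC (NM_174488) had 2 probes and the smallest spread of the 4 tested probes. On A_73_118319, well above background on all 12 arrays, CONT signals had a lowest value of -0.66, a median of -0.10 and a highest of 0.20, and REST signals -0.78, -0.54 and -0.18. The groups overlapped over most of the REST range. The means were -0.16 ± 0.31 in CONT and -0.53 ± 0.20 in REST (SD, n = 6), a change of -0.38 (SE 0.15, 95% interval -0.69 to -0.06, both without a block). With the cow as a fixed block the 95% interval was -0.67 to -0.08. It was lower in 5 of 6 cows, with cow 3 the exception (0.10). In limma the adjusted p was 0.212 without a block, 0.110 with the fixed block and 0.0604 with the random block. With the fixed block and without cow 3 it was -0.47 (adjusted p 0.0767 in limma).

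The change of VEGFC differed in size between slides. It was -0.26 on slide 1, -0.06 on slide 2 and -0.81 on slide 3, and without slide 3 it was -0.16 (adjusted p 0.668 in limma without a block). The other probe, A_73_P100771, was well above background on 4 arrays of each group, all on slides 1 and 2, and was not tested. Its means were -3.18 ± 0.48 in CONT and -3.33 ± 0.50 in REST (SD, n = 6), a change of -0.15, lower in 5 of 6 cows. Cow 2 was the exception here with 0.83. Both probes were lower in the same 4 cows.

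PDPN (NM_001033120) had 1 probe, A_73_P034696, well above background on 2 of 6 CONT and 3 of 6 REST arrays and on none of slide 3. CONT signals ran from -5.74 through a median of -4.25 to -3.32, and REST signals from -4.73 through -3.64 to -3.29. The means were -4.36 ± 0.79 and -3.91 ± 0.62 (SD, n = 6), a difference of 0.45, higher in 5 of 6 cows. Its direction depended on the background correction: with normexp the difference was -0.20. With dim spots set to the lowest signal well above background of their array it was 0.04. Both spots of cows 4, 5 and 6 were at that floor, so their values (-0.11, -0.47 and -0.30) are differences between arrays and not PDPN signal. A difference in PDPN was not detectable at this signal.

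**Figure D3:**
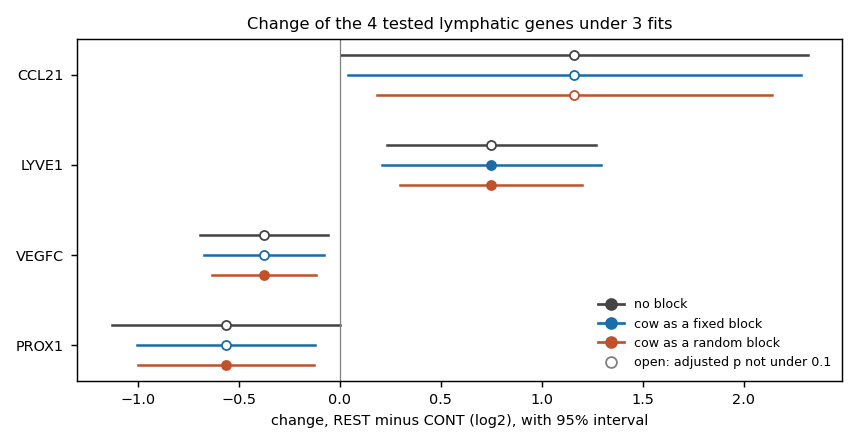
Change (REST minus CONT, log2) of the 4 tested genes with its 95% interval on the 12 arrays, from limma fits that ignored the cow or took it as a fixed or a random block; filled points have an adjusted p under 0.1. LYVE1 is filled in both blocked fits and PROX1 and VEGFC in the random-block fit, while CCL21 is open in each.

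Other genes of lymphatic identity, which include transcription factors acting with PROX1 and surface or secreted products of lymphatic vessels, were mostly dim. Of 17 listed genes 14 had a probe and 6 were tested. For the counts here and in the lists below, 4.39% of all tested genes were called without a block and 16.2% with the fixed block. At an unadjusted p under 0.05 in limma without a block there were 16.8%. None of the 6 passed without a block (0 of 6; 1 had an unadjusted p under 0.05 in limma), their median change was 0.18, and 4 of 6 were higher. The brightest by signal were TFF3, a secreted trefoil peptide also made by epithelia (0.65, adjusted p 0.212), NR2F2, a nuclear receptor that partners PROX1 (0.20, adjusted p 0.612), and RELN, a secreted matrix protein (-0.33, adjusted p 0.694). With the cow as a fixed block TFF3 passed (adjusted p 0.0364 in limma). MMRN1 and STAB2, which are found on lymphatic endothelium and were named after their values were seen, were each well above background on 0 CONT and 1 REST array.

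Of the VEGF-C axis, that is growth factors, processing enzymes, receptors and the adrenomedullin and angiopoietin systems, 12 of 22 genes were tested. ADM fell and the other 11 were not called, with a list median of -0.06 and 5 of 12 higher. ADM, the peptide adrenomedullin, which acts on lymphatic and blood endothelium, went from 3.07 ± 0.27 in CONT to 1.92 ± 0.33 in REST (SD, n = 6), a change of -1.15, lower in 6 of 6 cows (adjusted p 0.00655 in limma, and 0.00644 with the cow as a fixed block). Of all probes 8.48% were lower in every cow. ADM is also among the differentially expressed genes that the study listed on these samples, so its call is not independent evidence. The brightest of the others were RAMP2, a subunit of the adrenomedullin receptor (0.15, adjusted p 0.645), PCSK7, a proprotein convertase (-0.22, adjusted p 0.385), and VEGFB, a ligand of FLT1 (0.25, adjusted p 0.386). VEGFD, the other FLT4 ligand, and KDR, the other VEGFC receptor, were named here after their values were seen. VEGFD changed by -0.08 (adjusted p 0.827) and KDR by -0.15 (adjusted p 0.692) in limma.

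Of the CCL21 axis and lymph traffic, 4 of 15 genes were tested and CXCR4 rose. CXCR4, the CXCL12 receptor of leukocytes and other cells, went from -1.98 ± 0.48 to -1.18 ± 0.39 (SD, n = 6), a change of 0.80, higher in 5 of 6 cows (adjusted p 0.0906 in limma). This call was lost when any of cows 1 to 5 was left out without a block, and it held with the cow as a fixed block (adjusted p 0.0254). CXCL12 (-0.30, adjusted p 0.542) and S1PR1, the receptor by which lymphocytes leave tissue (0.29, adjusted p 0.393), were not called in limma, and the list median was 0.07 with 2 of 4 higher. CCL19, the other CCR7 ligand and the gene next to CCL21 in the ARS-UCD 2.0 assembly, and the receptor CCR7 itself were too dim to test and were named after their values were seen. CCL19 was well above background on 3 CONT and 5 REST arrays, with means of -3.22 ± 1.16 and -2.21 ± 0.96 (SD, n = 6), and CCR7 on 3 and 2, with means of -4.12 ± 0.43 and -4.37 ± 0.93.

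Of the hyaluronan genes, which make, cut or bind the polymer that LYVE1 recognises, 8 of 15 were tested and 0 were called without a block (1 had an unadjusted p under 0.05 in limma). The list median was 0.06 and 4 of 8 were higher. The brightest were HYAL2, a hyaluronidase (-0.0035, adjusted p 0.991), HAPLN3, a link protein (-0.80, adjusted p 0.495, with single cows from -3.23 to 0.64 and a median over cows of -0.66), and HAS3, a hyaluronan synthase (-0.19, adjusted p 0.581). With the cow as a fixed block HYAL1, the lysosomal hyaluronidase, passed with a change of 0.45 (adjusted p 0.0226 in limma), higher in 6 of 6 cows. Of all probes 4.25% were higher in every cow.

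Markers of the other cells of the gland are given beside these values, and their part in them was not tested. Of all tested genes 4.39% were called without a block and 16.2% with the fixed block, and 16.8% had an unadjusted p under 0.05 in limma without a block. A count below is therefore not read as a result about its list. Of the blood endothelial markers 16 of 19 were tested and 2 rose, VWF by 0.54 (adjusted p 0.0534) and CLDN5 by 0.74 (adjusted p 0.0560 in limma), while the mean signal of the list was between 1.32 and 1.84 on CONT arrays and between 1.54 and 1.74 on REST arrays, higher in 5 of 6 cows. With the cow as a fixed block 4 of the 16 passed, 2 higher and 2 lower. Of the macrophage markers, which matter beside LYVE1, 6 of 8 were tested and 0 called (0 at an unadjusted p under 0.05 in limma). Their mean signal was between 0.10 and 0.83 in CONT and between 0.12 and 0.69 in REST, higher in 3 of 6 cows. C1QA, a complement subunit of macrophages, passed with the cow as a fixed block, at -0.47 (adjusted p 0.0379).

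T cell markers, which bear on CCL21, were tested for 6 of 7 genes with 0 called (1 at an unadjusted p under 0.05 in limma), and with the fixed block CD3E and CD8A passed (0.35 and 0.45). Of the 6, 4 were higher and 2 lower, with a median change of 0.13, and the mean signal of the list was higher in 5 of 6 cows. Fibroblast and myoepithelial markers, beside PDPN, had 0 of 8 called in each list (0 and 1 at an unadjusted p under 0.05 in limma), and with the fixed block FAP passed among the fibroblast markers at 0.54 and ACTA2 and CNN1 among the myoepithelial ones at -0.37 and -0.53. In each list 4 of 8 were higher, and the mean signal was higher in 3 of 6 cows for fibroblast markers and in 1 of 6 for myoepithelial markers. PDPN was higher in 5 of 6, but 7 of its 12 spots were not well above background, so its tally is not set against theirs. MS4A1 and CR2, which define B cells and follicles, were well above background on 0 of 12 arrays, as was the adipocyte gene PLIN1, and these too were named after their values were seen. Luminal epithelial markers gave 0 of 7 called (3 at an unadjusted p under 0.05 in limma), and 3 of 7 with the fixed block, with a mean signal of 5.60 to 6.13 in CONT and 5.80 to 6.26 in REST, higher in 6 of 6 cows. Its genes went both ways, 4 higher and 3 lower, and of those that passed with the block KRT8 (0.72) and KRT18 (0.52) rose and CSN3 (-0.27) fell. Of the erythrocyte markers 0 of 2 tested were called (0 at an unadjusted p under 0.05 in limma), with changes of -0.33 for HBA and -0.41 for AHSP. With the fixed block 0 of 2 were called and 2 of 2 had an unadjusted p under 0.05, and the mean signal of the list was lower in 6 of 6 cows.

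**Figure D4:**
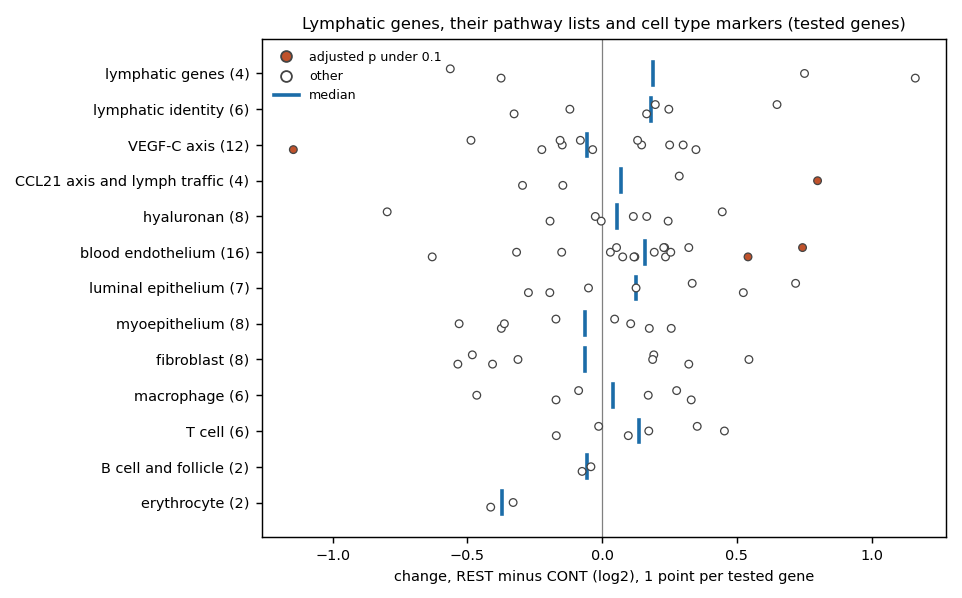
Change (REST minus CONT, log2) of each tested lymphatic gene, of the genes of 4 pathway lists and of cell type markers, with the number of tested genes in brackets; the bar is the median of the list and filled points have an adjusted p under 0.1 in limma without a block. CCL21 and LYVE1 lie at 1.16 and 0.75 and PROX1 and VEGFC at -0.56 and -0.38, and the filled points are ADM, CXCR4, VWF and CLDN5.

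Genes with the pattern most like each member were sought among genes well above background on all 12 arrays (7338 for PROX1 and CCL21, 7337 for LYVE1 and VEGFC), as Pearson's r over the 12 arrays after each slide's mean was subtracted. The arrays share cows and slides, the highest values among many genes are picked, and they are given as a description. For PROX1 they were DDHD2 (0.92), MICU2 (0.92) and TMEM53 (0.92). For LYVE1 they were TTC38 (0.91), DDIT3 (0.90) and FAT1 (0.90). For CCL21 they were BRIX1 (0.96), GOSR2 (0.95) and CAPZA1 (0.94), a likeness in which the dim CONT spot of cow 5 takes part. For VEGFC they were WRN (0.89), NDUFAF3 (0.88) and SLCO2B1 (0.88). The median absolute r over all genes compared was 0.30 to 0.35, and none of these 12 genes was called in limma without a block, where their adjusted p ran from 0.185 to 0.718. With the cow as a fixed block DDIT3 (0.0408) and TTC38 (0.0849) passed on adjusted p.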

How the data were processed

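RNA from 12 MG biopsies (6 cows, CONT and REST) was labelled with Cy3 and hybridised to one-colour bovine arrays. Per the file headers and labels, the authors extracted spots with Agilent Feature Extraction version 11. The deposited processed intensities are background-subtracted, spatially detrended and on a linear scale, with no scaling between arrays, and the deposited series table held the same intensities in all 45220 cells of each array. The deposited well-above-background and outlier flags (other columns) were used as given. Here log2 intensities of non-control probes were taken, marked outlier spots (1 to 13 per array) were left out, repeat spots averaged, and each array's 75th percentile subtracted. No spot was saturated (0 per array). A symbol was attached through RefSeq accessions to 27131 of 43653 probes (62.2%) from a table of the ARS-UCD 2.0 assembly. The grid annotation of the arrays uses UMD 3.1, so no coordinates are given, and no probe or gene sequence was used here.

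Differences between REST and CONT were fitted with limma 3.58.1 in R 4.3.3 (lmFit and eBayes, two-sided, no block, as the methods of the study state no pairing), with Benjamini-Hochberg adjustment over all 19406 tested probes and a threshold of 0.1. The labels give the same 6 animals in both groups. Deviations from the group means correlated at 0.36 to 0.57 between arrays of the same cow and at -0.33 to 0.13 between arrays of different cows, so the cows pair the arrays, and values from fits with the cow as a block are printed for the 4 tested members and, for other genes and lists, mainly where the block changes a call or a count. A gene was read through its tested probe of highest mean signal. The genes, the lists and the tests were chosen with earlier results of these data known. Named genes were the 6 genes with every probe, of each list the called ones (at most 4) and otherwise the 3 of highest mean signal, and the 3 genes most like each tested member. Genes that passed only with the block, and a few chosen for their role or for dimness, were named outside this rule after their values were seen. For 1 gene of the pathway lists selected by the rule no value is reported here, and it stays in the counts of its list. In the marker lists values are printed for called genes, for most that passed with the block and for the tested erythrocyte genes. Marker genes that passed only with the block were thus picked on their adjusted p, and markers that the rule takes by signal alone have no value printed. The 4 pathway lists and 9 marker lists are described by counts and medians.

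The alternatives were a fixed or random block for the cow, a block for the slide or each slide alone, normexp (offset 50), quantile and median normalization, other filters on dim probes, marked spots kept, other moderation, the mean of a gene's probes, and each cow or slide 3 left out. Scripts were tested on simulated data. The number of arrays limits the precision, and no counts underlie array signals. Python 3.11.15, pandas 2.3.3 and matplotlib 3.10.9 were used for tables and plots.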

Additional observations from a re-analysis of the deposited data

Results flagged for a closer look

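In 3 of 37 groups of 6 values a single value stood far from the rest, its gap to the nearest of the others taking more of the whole range than Dixon's critical value for 6 values, and chance flags about 1 in 20 such groups. For the dim LYVE1 probe A_73_P468658 in REST the share was 0.669, from cow 6 at -4.52 against -3.10 to -2.39 in the others. For the within-cow change of LYVE1 on A_73_P041846 it was 0.739, from cow 6 at -0.73 against 0.78 to 1.32. For the within-cow change of VEGFC on the dim probe A_73_P100771 it was 0.776, from cow 2 at 0.83 against values of -0.48 to -0.19.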

How the results depend on the processing

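The changes of the 4 tested genes kept their direction under every alternative run for them, 31 for PROX1 and CCL21 and 32 for LYVE1 and VEGFC. Many of these are no check of direction. Blocks, moderation and filters on dim probes leave the change as it is and alter only its error or adjusted p. With a cow or slide 3 left out, the blocked fit repeats the change of the fit without a block. Other normalizations, single slides and left-out cows could move it, and for some genes the mean of probes or raised dim spots. Their sizes ran from -0.77 to -0.40 for PROX1, from 0.16 to 1.17 for LYVE1, from 0.24 to 2.77 for CCL21 and from -0.81 to -0.06 for VEGFC, and adjusted p from 0.0632 to 0.694, 0.0117 to 0.439, 0.114 to 0.699 and 0.0604 to 0.668 in that order. CCL21 reached 2.77 and VEGFC -0.81 within slide 3, and PDPN was -0.20 with normexp; the cause was not tested. LYVE1 (0.75) passed with the cow as a fixed (replicate) or random block, as did the mean of its probes (0.83), and at 1.05 without slide 3, with or without the block. PROX1 (-0.56) and VEGFC (-0.38) passed with the random block. Leaving out 1 cow gave changes of -0.73 to -0.42 for PROX1, 0.64 to 1.05 for LYVE1, 0.57 to 1.45 for CCL21, -0.47 to -0.28 for VEGFC and 0.32 to 0.58 for PDPN. Members called, 0 without a block, were 1 with the fixed block, with the mean of probes and without slide 3 (block or not), 3 with the random block, and 0 to 2 with 1 cow left out.

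Called probes, 831 without a block, were 3101 with the cow as a fixed block, 3535 as a random block, 1901 with the slide as a block, 476 with a median shift, 201 with normexp, 95 with no filter (384 with the block), and 370 without slide 3 (2775 with the block). With 1 cow left out they ran from 189 to 612 without a block and from 1053 to 3235 with it (1509 without cow 1, 2353 without cow 3, 2582 without cow 6). Called genes of the lymphatic identity list (0 of 6) and of the hyaluronan list (0 of 8) were 1 each with either block and without slide 3 with the block, and 1 for hyaluronan with the slide as a block; with 1 cow left out they were 0 to 2 and 0 to 1. The CCL21 axis, 1 of 4, had 0 with a median shift, normexp, no filter (block or not), the filter on 5 arrays, no moderation and without slide 3, and 0 to 2 with 1 cow left out. The FLT4 change could not be computed, and the values of the series table were the same intensities and were not fitted again. The fit with probes well above background on all 12 arrays leaves out PROX1 and CCL21. The 5-array filter, the fits without slide 3, the block with no filter or with a cow left out, and raised dim spots were chosen after seeing the data.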
